A study of Homo sapiens with 8 samples.

Results

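The broad H3K27me3 domains of HT are the 370 widest of 16851 autosomal islands of H3K27me3 in this diffuse large B cell lymphoma line, chosen by width alone, at a limit of 10 kb. The series holds ChIP-seq of H3K27me3, EZH2 and H3K4me3 in HT and in SUDHL6, another established line of the same lymphoma. Both lines were untreated and cultured in the same serum-supplemented medium, and each combination of line and antibody had 1 library, so the values have no replicate check and no test between libraries was made. The 6 deposited island lists hold 58757 islands in all, on hg19. No source used here states the genotype of either line or how deeply the libraries were sequenced. The input samples were not used here.

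H3K27me3 is written by Polycomb repressive complex 2, whose catalytic subunit is EZH2, and marks repressed chromatin. The complex also binds the mark it makes, through which it can spread along a chromosome into domains much longer than a single gene promoter. H3K4me3 marks the promoters of active or poised genes, and where both marks lie together the promoter is often called bivalent. EZH2 is highly expressed in germinal centre B cells, from which many lymphomas of this type derive, and is often mutated in them.

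The broad islands made up 2.20% of the autosomal HT H3K27me3 islands and held 5.61 Mb, or 10.3% of the covered length. They also held 13.1% of the summed score, a whole number that the authors give for each island and that is used here within 1 list only. Their widths ran from 10.05 to 68.7 kb, with quartiles of 10.95, 12.75 and 16.2 kb. Of the 370, 111 islands were at least 15 kb wide, 53 at least 20 kb and 18 at least 30 kb. The limit fell within a continuous range, with 17 islands of 10050 bp just inside it and 14 of 9900 bp just outside. Of these, an island on chromosome 1 from 11495851 to 11505900 had a score of 19.8 per kb, and one of 9.9 kb on chromosome 1 from 7686751 to 7696650 had 18.5 per kb.

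The broad islands were not spread evenly over the chromosomes. Of the 370, 112 lay between 110 and 120 Mb of chromosome 11 and 41 between 70 and 80 Mb of chromosome 10, and no other window of 10 Mb held more than 7. The 2 windows together, called the 2 segments from here on, held 41.4% of the broad islands and 50.2% of their length, against 1.44% of the narrower HT H3K27me3 islands (238 of 16481). Since the segments were picked from the positions of the broad islands, these shares describe the list and support nothing further. The 10 leading windows held 54.3% of the broad islands (201 of 370), whereas the 10 leading windows of all HT H3K27me3 islands held 13.5% of those. These windows too were picked by the counts they hold, 2 of them are the segments, and a short list gathers more in its own leading windows than a long one. The exact Clopper-Pearson 95% intervals given below cover counting error only, and are too narrow because neighbouring islands are not independent.

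**Figure D1:**
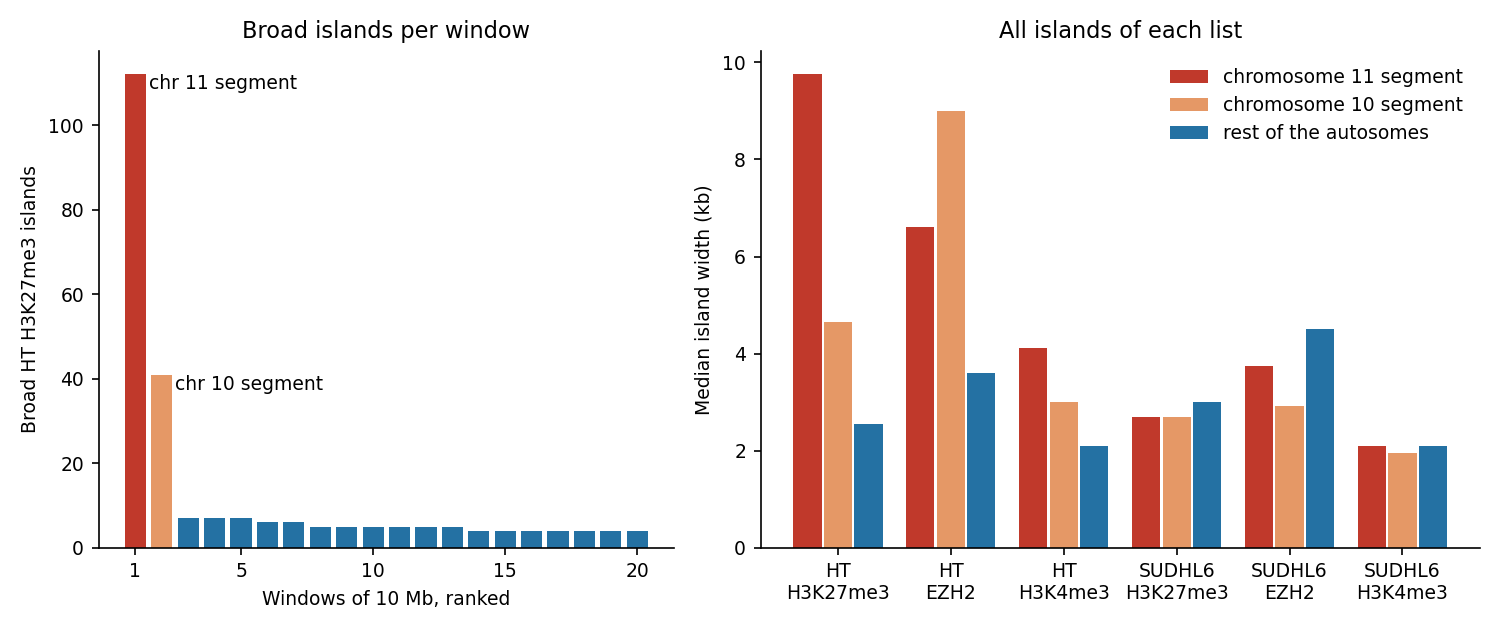
Left, number of broad HT H3K27me3 islands in each of the 20 leading windows of 10 Mb, ranked; right, median width in kb of all islands of each of the 6 lists in the chromosome 11 segment, the chromosome 10 segment and the rest of the autosomes. The first window holds 112 and the second 41 broad islands and the third 7, and in the segments the islands of all 3 HT lists, but not those of the SUDHL6 lists, have higher median widths than in the rest of the autosomes.

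Within the segments the broad islands stood close together as long runs. With broad islands at most 500 kb apart counted as 1 run, 101 of them formed a run on chromosome 11 from 112143751 to 118223400, a span of 6.08 Mb. HT H3K27me3 covered 38.0% of that span and SUDHL6 H3K27me3 covered 3.82%. The 41 broad islands on chromosome 10 formed a run from 71229001 to 73852350, a span of 2.62 Mb, of which HT H3K27me3 covered 42.6% and SUDHL6 H3K27me3 10.9%. The next run, of 9 broad islands, lay on chromosome 11 from 110696101 to 111424350. The median distance to the nearest broad island was 8.25 kb in the chromosome 11 segment and 7.5 kb in the chromosome 10 segment, against 820 kb among the broad islands outside the segments. Some neighbours were parted by little more than the 450 bp gap of the island calls, as between 112618350 and 112618951 on chromosome 11. The counts in the segments thus depend on that gap. Over all autosomes 130 broad islands stood alone, and 22 runs held 2 each.

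The other 217 broad islands were scattered over all 22 autosomes, from 1 on chromosome 4 to 32 on chromosome 1. They made up between 0.364% (chromosome 4) and 2.53% (chromosome 11) of the HT H3K27me3 islands outside the segments. The outer 10 Mb of the chromosomes, measured to the last island of any list, held 19.4% of them (42 of 217) and 17.0% of the narrower islands. No broad island of the segments lay there, so the share over all 370 was 11.4%. On chromosome 11, 6 of the 37 HT H3K27me3 islands from 90 to 100 Mb were broad (16.2%). From 100 to 110 Mb, beside the segment, 5 of 46 were (10.9%). Median HT H3K27me3 widths there were 4.65 and 4.275 kb, against 2.55 kb outside the segments. None of these broad islands held HT EZH2, and SUDHL6 H3K27me3 met only that from 94872601 to 94885050. Values given for broad islands elsewhere include this stretch, which resembled the segments. Among the short runs, 5 broad islands on chromosome 12 from 54356551 to 54989550 had HT EZH2 over 12.1% of the span, and 5 on chromosome 5 from 139022551 to 139286400 had it over 13.3%. In the same spans SUDHL6 EZH2 covered 3.13% and 8.64%. HT EZH2 covered less of the other runs of 4 to 6 broad islands outside the segments. It covered 2.80% of the run of 6 on chromosome 11 from 94461901 to 94885050. For the runs of 5 on chromosomes 1 and 10 it was 4.56% and 5.44%, and for that of 4 on chromosome 10 it was 0%. Gene positions on hg19 were not used here, so none of these islands is assigned to a gene.

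The widest broad islands lay in the segments, although the ranges of width and score of both places overlapped. All 18 broad islands of at least 30 kb lay in the segments, and so did 40 of the 53 of at least 20 kb. The median broad island was 15.5 kb wide in the segments and 11.9 kb elsewhere. The widest of all lay on chromosome 10 from 73450801 to 73519500 (68.7 kb) and had a score of 2659, or 38.7 per kb. HT EZH2 and HT H3K4me3 covered none of it, and SUDHL6 H3K27me3 covered 44.1%. The next, on chromosome 11 from 113798851 to 113860800 (61.95 kb), had a score of 33.7 per kb, again with no HT EZH2 or HT H3K4me3. Outside the segments the widest measured 29.7 kb and lay on chromosome 1 from 234926251 to 234955950. It had a score of 31.1 per kb, no EZH2 of either line and no H3K4me3 of either line, and SUDHL6 H3K27me3 over 63.6% of its length.

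The score per kb was higher in broad islands than in the rest of their list. Its quartiles were 21.9, 25.04 and 29.8 per kb over the 370 broad islands and 17.5, 20 and 23.2 per kb over the narrower ones. It did not simply follow width, since islands under 1 kb had a median of 26.7 per kb and those of 2.5 to 5 kb the lowest, 19.1 per kb. Among broad islands the median was 27.7 per kb in the segments (153 islands) and 23.1 elsewhere (217 islands). Narrower islands in the segments also had a higher median (24.7 per kb) than narrower islands elsewhere (20 per kb). Width and score come from the same calls, so these values are a description.

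**Figure D2:**
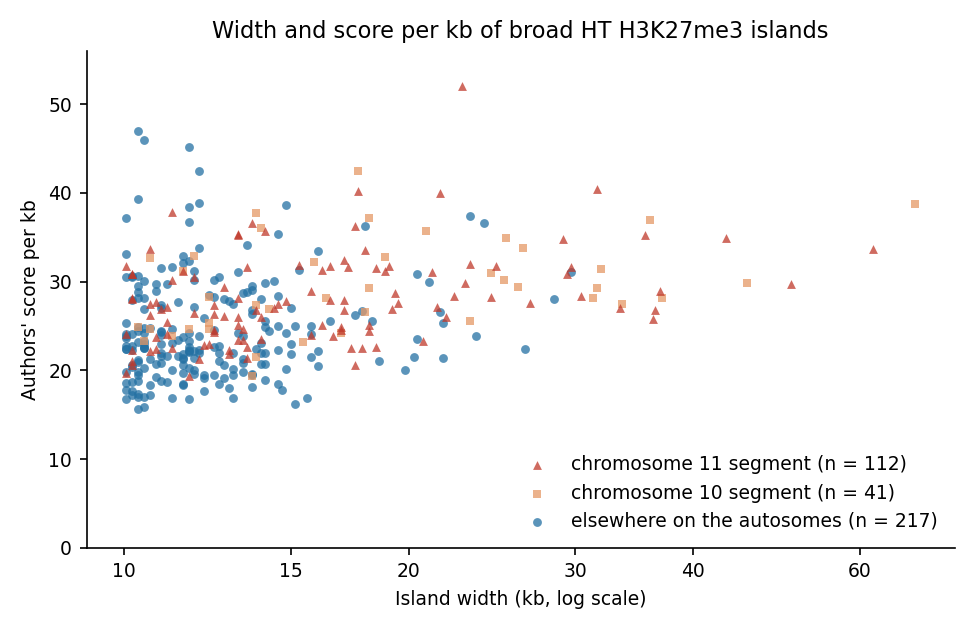
Authors' score per kb against island width (kb, log scale) for each of the 370 broad HT H3K27me3 islands, by place. The 18 islands of at least 30 kb all lie in the chromosome 11 and chromosome 10 segments, and the islands elsewhere end at 29.7 kb while reaching 47.0 per kb.

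The extremes of score per kb differed in what else they carried. The highest, 52.0 per kb, was an island of 22.8 kb on chromosome 11 from 117692101 to 117714900, in the segment, with SUDHL6 H3K27me3 over 67.8% and no EZH2 of either line. The next 3 all lay outside the segments under EZH2 of both lines. On chromosome 11 from 826801 to 837150 (47.0 per kb), HT EZH2 covered 94.2% and SUDHL6 EZH2 81.2% of the island. On chromosome 17, HT EZH2 covered the whole of the islands from 1954051 to 1964550 (46.0 per kb) and from 77771701 to 77783400 (45.1 per kb), with SUDHL6 EZH2 over 71.4% and 88.5%. The 5 lowest islands, from 15.7 to 16.8 per kb, lay on chromosomes 5, 9, 13 and 20, and none held EZH2 or H3K4me3 of either line. SUDHL6 H3K27me3 reached 1 of these 5, over 1.43% of its length.

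EZH2, which was not used to choose the islands, lay in 88 of the 370 broad islands of HT, or 23.8% (19.5 to 28.5%). The background, the share of all 16851 autosomal HT H3K27me3 islands that overlapped HT EZH2, was 7.73%. Wider islands meet more by length alone, so the covered length is the closer comparison, and HT EZH2 covered 11.5% of the length of the broad islands and 6.96% of that of the narrower ones. Islands of 5 to 10 kb, next below the limit, had 10.47%, near the value of the broad ones. Outside the segments the cover was 21.2% for broad islands and 11% for those of 5 to 10 kb. The value for all 370 hides a wide split by place. Islands of all 3 HT lists, but of no SUDHL6 list, had higher median widths in the segments, and the part of this in the split was not tested. In the segments 5 of 153 broad islands held HT EZH2 (3.27%, 1.07 to 7.46%), over 1.82% of their length, a share below the background although these include the widest islands of the list. Elsewhere it was 83 of 217 (38.2%, 31.8 to 45.1%). The chromosome 11 segment had 3 such islands of 112 and the chromosome 10 segment 2 of 41.

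The narrower islands of the segments were poor in EZH2 too. HT EZH2 met 8 of 238 of them (3.36%, 1.46 to 6.52%), against 1207 of 16243 narrower islands elsewhere (7.43%, 7.03 to 7.85%). HT EZH2 itself was present in the segments, with 27 islands there. Of these 27, 44.4% (25.5 to 64.7%) overlapped HT H3K27me3 of any width. The share was 48.9% (46.9 to 50.8%) for the 2481 HT EZH2 islands in the rest of the autosomes. HT H3K27me3 itself was far denser in the segments. It held 2699.4 kb of the chromosome 11 segment and 1318.5 kb of the chromosome 10 segment, each 10 Mb long. In all the rest of the autosomes it held 50233 kb. HT EZH2 islands were also wider in the segments (medians of 6.6 and 9 kb) than in the rest (3.6 kb). The overlap from position and width alone was not tested, so these shares are no measure of how closely EZH2 followed the mark. Of the 27, 6 met a broad H3K27me3 island, and 148 of the 153 broad islands there held no EZH2.

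The EZH2-bearing islands of the segments were few enough to name. On chromosome 10 HT EZH2 covered 78.0% of the island from 72967951 to 72985650 and 89.2% of that from 73838401 to 73852350. On chromosome 11 it covered 42.6% of an island of 43.35 kb from 116395051 to 116438400, 44.0% of one from 117177301 to 117188550 and 6.45% of one from 113978701 to 114001950. SUDHL6 EZH2 met 1 of these 5, the second on chromosome 10, over 68.8%. These 5 were named after their values were seen.

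Outside the segments EZH2 lay towards the middle of the broad islands. In the segments HT EZH2 covered 2.06% of the bases from 4 to 5 kb inside the edges, 1.31% in the first kb inside, 1.31% in the first kb outside and 0.899% from 9 to 10 kb outside. Elsewhere the cover at the same distances was 23.3%, 13.6%, 10.2% and 3.35%. The outside was in part HT H3K27me3 again. In the segments that mark covered 9.72% of the first kb outside and 49.2% from 9 to 10 kb outside, and elsewhere 4.65% and 20.8%. An edge is therefore the end of a called island and need not be the end of a marked stretch. Of 107 HT EZH2 islands that met a broad island outside the segments, 61 lay wholly within H3K27me3. The median width of the 107 was 5.55 kb, against 3.6 kb for the whole EZH2 list, and wider EZH2 islands meet more by length alone. At least 50% of the island was covered by HT EZH2 in 43 of the 217 broad islands, at least 90% in 9 and all of it in 5. By bases, the longest EZH2 cover was in an island of 28.5 kb on chromosome 12 from 54383101 to 54411600 (89.5% covered), followed by one of 23.25 kb on chromosome 5 from 139022551 to 139045800 (84.5% covered).

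Outside the segments HT EZH2 was more frequent in broad islands of higher score per kb. Of the 108 broad islands there with the higher scores per kb (23.2 or more), 61.1% (51.3 to 70.3%) held HT EZH2, and of the 109 with the lower scores 15.6% (9.36 to 23.8%) did. Over the same sets the share with SUDHL6 H3K27me3 was 70.4% (60.8 to 78.8%) and 58.7% (48.9 to 68.1%). None of the differences between these sets was tested. SUDHL6 EZH2 met 38.9% (29.7 to 48.7%) of the islands with the higher scores and 16.5% (10.1 to 24.8%) of those with the lower, and SUDHL6 H3K4me3 met 17.6% (10.9 to 26.1%) and 3.67% (1.01 to 9.13%), so the difference was not particular to HT EZH2. The median score was 28.1 per kb in the 83 islands with HT EZH2 and 21.5 per kb in the 134 without. In the segments the median was 27.7 per kb, near that of the EZH2-bearing islands elsewhere, with almost no EZH2.

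**Figure D3:**
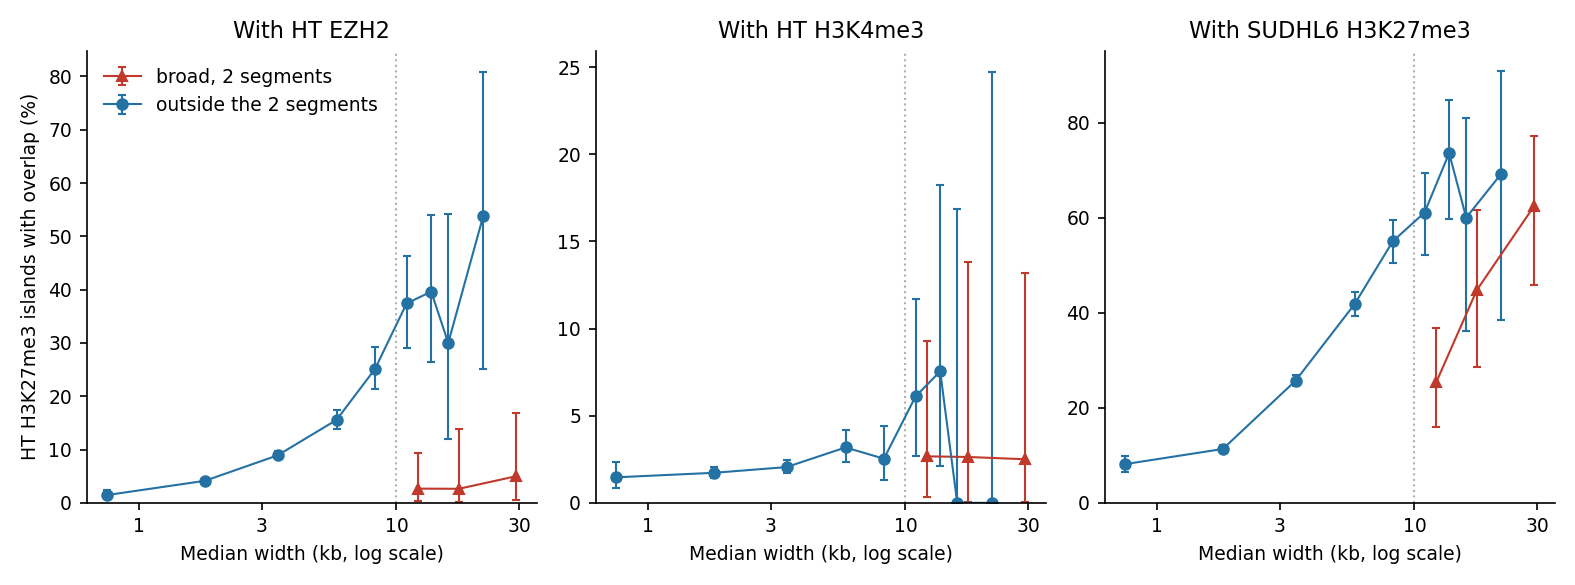
Share of HT H3K27me3 islands that overlap HT EZH2, HT H3K4me3 and SUDHL6 H3K27me3 by at least 1 bp, against the median width of the width class (kb, log scale), with exact 95% intervals; triangles are broad islands of the 2 segments, circles all islands outside them, and the dotted line marks 10 kb. At 20 kb or wider the share with HT EZH2 is 5% in the segments and 53.8% outside them.

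The share with HT EZH2 was lower in the segments than elsewhere in every width class of broad islands. The intervals treat neighbouring islands as independent, so whether they overlap decides nothing, and the difference was not tested. In the segments HT EZH2 met 2.67% (0.325 to 9.30%) of the 75 broad islands under 15 kb, 2.63% (0.0666 to 13.8%) of the 38 from 15 to 20 kb and 5% (0.611 to 16.9%) of the 40 of 20 kb or wider. Elsewhere the shares were 38.0% (31.0 to 45.5%) of 184, 30% (11.9 to 54.3%) of 20 and 53.8% (25.1 to 80.8%) of 13. Over both places together the share was 12.1% (4.99 to 23.3%) at 15 to 20 kb and 17.0% (8.07 to 29.8%) at 20 kb or wider, where the segments held 38 of 58 and 40 of 53 islands.

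H3K4me3 of the same line was rare in the broad islands and thin where present. It met 16 of 370 (4.32%, 2.49 to 6.93%), against a background of 2.05% over all HT H3K27me3 islands. It covered 0.449% of the length of the broad islands and 0.722% of that of the narrower ones, so the higher share of islands came without more cover. The shares were 2.61% (0.717 to 6.56%) of the 153 broad islands of the segments and 5.53% (2.89 to 9.46%) of the 217 elsewhere. In none of the 16 did it cover 50% of the island.

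Most of the HT H3K4me3 that met broad islands crossed an edge, as did most that met islands of 5 to 10 kb (42 across an edge, 22 wholly inside). Of 17 meetings with broad islands 11 were across an edge and 6 wholly inside. The widest overlap was in the chromosome 11 segment, where an H3K4me3 island of 17.25 kb ran 5.10 kb into the broad island from 118132501 to 118150500. The overlap was a single 150 bp step of the calling grid in 3 of the 11, on chromosomes 11 and 14. Those wholly inside were 1.05 to 3.3 kb wide, against a median of 2.1 kb in the whole list, and include one of 1.95 kb on chromosome 7 from 156802201 to 156804150, within a broad island that HT EZH2 covered over 68.1%. Outside the segments HT H3K4me3 covered 0.876% of bases in the first kb inside the edges and 0.599% from 4 to 5 kb inside, against 1.88% in the first kb outside and 2.96% from 3 to 4 kb outside. An HT H3K4me3 island lay within 5 kb outside an edge of 9.68% (6.09 to 14.4%) of these broad islands, and of 5.24% (4.30 to 6.32%) of the islands of 5 to 10 kb outside the segments.

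**Figure D4:**
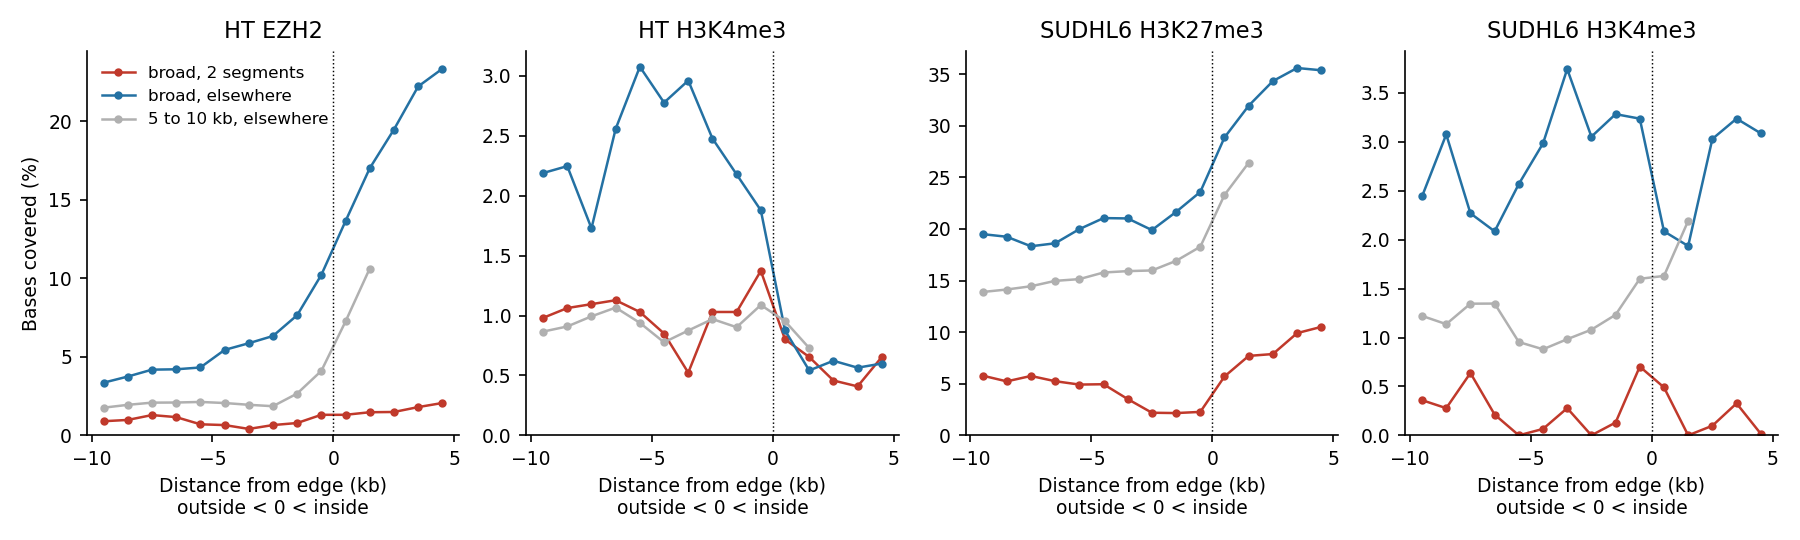
Percent of bases covered by HT EZH2, HT H3K4me3, SUDHL6 H3K27me3 and SUDHL6 H3K4me3 in steps of 1 kb from the edges of HT H3K27me3 islands (negative values outside, positive inside, both edges together), for broad islands of the 2 segments, broad islands elsewhere and islands of 5 to 10 kb elsewhere. For broad islands elsewhere HT EZH2 reaches 23.3% at 4 to 5 kb inside, whereas HT H3K4me3 is at 1.88% just outside and 0.876% just inside the edge. The bases outside include other HT H3K27me3 islands.

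The SUDHL6 line had H3K4me3 in 26 of the 370 broad islands of HT (7.03%, 4.64 to 10.1%), against a background of 3.71%. By length it covered 1.64% of the broad islands, 1.79% of the narrower ones and 2.08% of those of 5 to 10 kb, so the higher share of islands came without more cover. Of the 17 meetings of HT H3K4me3 6 were wholly inside, and of the 28 of SUDHL6 H3K4me3 15 were, a difference that was not tested. Of the 26, 23 lay outside the segments, and 19 of these 23 held HT EZH2 (82.6%, 61.2 to 95.05%), as did 64 of the 194 without SUDHL6 H3K4me3 (33.0%, 26.4 to 40.1%). The 19 include islands on chromosome 1 from 120603601 to 120624600 and on chromosome 2 from 92218201 to 92230350, beside those named below. The 4 that SUDHL6 H3K4me3 covered by at least 50% all lay on chromosomes 1 and 2. The difference between the 2 shares was not tested. On chromosome 1 from 145199851 to 145217850, SUDHL6 H3K4me3 of 14.1 kb filled most of a broad island of 18 kb that HT EZH2 covered over 48.3% and that had no SUDHL6 H3K27me3. On chromosome 5 from 139022551 to 139045800, an island under HT EZH2 over 84.5%, SUDHL6 had an H3K4me3 island of 3.9 kb and no H3K27me3. At 2 broad islands on chromosome 2, from 90446401 to 90459750 and from 91666801 to 91678050, HT EZH2 covered the whole island and H3K4me3 of both lines was present as well. None of the broad islands was checked against input. H3K4me3 score per kb was low around the named islands of chromosomes 1 and 2. Its median from 90 to 100 Mb of chromosome 2 was 22.8 in HT and 22.7 in SUDHL6. From 120 to 130 Mb of chromosome 1 it was 20.9 in HT (6 islands) and 24.4 in SUDHL6 (18 islands). From 140 to 150 Mb it was 22.3 and 23.5, against 34.3 and 32 outside the segments. The islands at 120603601, 145199851, 91666801 and 92218201 were picked out after their values were seen.

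SUDHL6 H3K27me3 met 201 of the 370 broad islands of HT (54.3%, 49.1 to 59.5%), against a background of 21.3% over all HT H3K27me3 islands. It covered 22.2% of their length, and 17.6% of that of the narrower ones. HT islands of 5 to 10 kb, next below the limit, had 25.4% of their length covered, which includes those of the segments. Outside the segments the cover was 33.0% of the length of broad islands and 26.7% of that of islands of 5 to 10 kb. In the segments it met 61 of 153 (39.9%, 32.1 to 48.1%) over 11.5% of the length, and elsewhere 140 of 217 (64.5%, 57.8 to 70.9%). The chromosome 10 segment had a higher cover (20.6%) than the chromosome 11 segment (7.54%).

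Where both lines had the mark, the match was mostly partial. Of the 370 broad islands, SUDHL6 H3K27me3 left 169 untouched, covered less than 25% of 73, 25 to 50% of 52, 50 to 75% of 42 and at least 75% of 34. All but 1 of the 34 lay outside the segments. Those covered whole numbered 7, the widest of them 2 neighbours of 15.75 kb (chromosome 6, 33818701 to 33834450) and 14.7 kb (33859801 to 33874500), without EZH2 of either line. From 30 to 40 Mb of chromosome 6 the SUDHL6 islands of every list were wide. Their medians were 7.7 kb for H3K27me3, 12 kb for EZH2 and 3.3 kb for H3K4me3, against 3, 4.5 and 2.1 kb in the whole lists. The part of this in the whole cover was not tested. The widest with no SUDHL6 H3K27me3 were all in the segments, led by a pair in that of chromosome 11, one 36.9 kb wide at 112391251 to 112428150 and one 36.3 kb wide at 112684351 to 112720650.

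**Figure D5:**
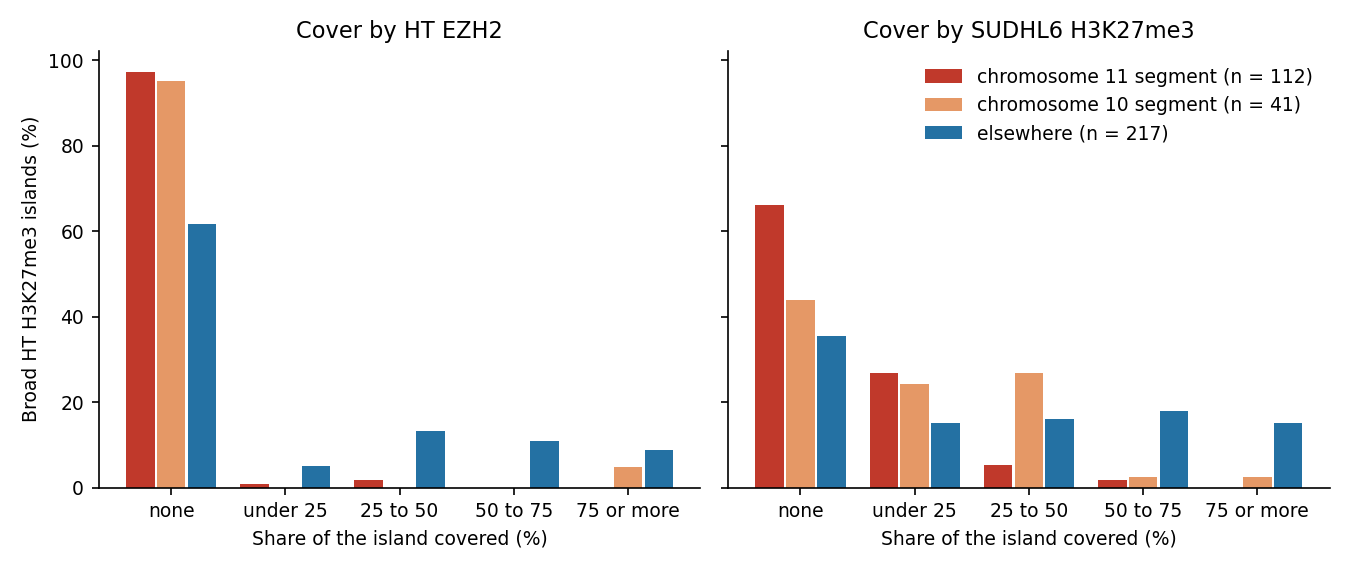
Percent of the broad HT H3K27me3 islands in each class of cover by HT EZH2 (left) and by SUDHL6 H3K27me3 (right), for the chromosome 11 segment, the chromosome 10 segment and elsewhere. HT EZH2 is absent from 97.3%, 95.1% and 61.8% of the islands, and SUDHL6 H3K27me3 from 66.1%, 43.9% and 35.5%.

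The SUDHL6 H3K27me3 islands inside the segments were much narrower than the broad islands, and about as wide as those of their whole list. The 107 that met broad islands there had a median width of 2.70 kb and none was 10 kb or wider, and 98 of them lay wholly within HT H3K27me3. Up to 8 of them fell within 1 broad island. Elsewhere 213 SUDHL6 islands met broad islands, with a median width of 4.2 kb, and 34 were 10 kb or wider. The whole SUDHL6 H3K27me3 list had a median of 3 kb. Around the edges of broad islands outside the segments, SUDHL6 H3K27me3 covered 28.9% of bases in the first kb inside and 23.6% in the first kb outside, and 35.4% from 4 to 5 kb inside.

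EZH2 of SUDHL6 followed the same division by place. It met 67 of the 370 broad islands of HT (18.1%, 14.3 to 22.4%), against a background of 4.42%, and covered 7.84% of their length. The narrower islands had 4.33% of their length covered and those of 5 to 10 kb 7.74%, about the value of the broad ones. Outside the segments the cover was 14.5% for broad islands and 8.19% for those of 5 to 10 kb. The share was 4.58% (1.86 to 9.20%) in the segments and 27.6% (21.8 to 34.1%) elsewhere. Outside the segments, 38 of the 83 broad islands with HT EZH2 also held SUDHL6 EZH2 (45.8%, 34.8 to 57.1%), as did 22 of the 134 without it (16.4%, 10.6 to 23.8%). Of the 60 with SUDHL6 EZH2, 55 had SUDHL6 H3K27me3. The commonest state outside the segments was SUDHL6 H3K27me3 with no HT EZH2 (82 of 217, 37.8%), followed by both (58, 26.7%), neither (52, 24.0%) and HT EZH2 alone (25, 11.5%). In the segments neither was the commonest, with 91 of 153 (59.5%).

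Islands of every HT library were wider in the segments than in the rest of the autosomes, and those of the SUDHL6 libraries were not. Median widths in the chromosome 11 segment, the chromosome 10 segment and the rest were 9.75, 4.65 and 2.55 kb for HT H3K27me3. For HT EZH2 they were 6.6, 9 and 3.6 kb, and for HT H3K4me3 4.13, 3 and 2.1 kb. In SUDHL6 they were 2.7, 2.7 and 3 kb for H3K27me3, 3.75, 2.93 and 4.5 kb for EZH2, and 2.1, 1.95 and 2.1 kb for H3K4me3. HT H3K4me3 islands of 10 kb or wider numbered 9 of 60 in the chromosome 11 segment, 3 of 73 in the chromosome 10 segment and 39 of 10460 in the rest. The median HT score per kb in these places was 26.5, 24.7 and 20 for H3K27me3, 19.25, 17.6 and 14.9 for EZH2, and 34.4, 35.3 and 34.3 for H3K4me3. It was thus higher in both segments for H3K27me3 and EZH2, and nearly level for H3K4me3. The part of these differences in the values of the broad islands was not tested.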

How the data were processed

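Chromatin from 2 cell lines was profiled by ChIP-seq with 3 antibodies, all from Cell Signaling per the labels, 1 library each. For each library the authors deposited an island list that gives every island a score. Per the submitters' processing notes the tools and build were SICER and hg19. The window (150 bp) and gap (450 bp) come from names of the deposited files. What the score counts, its normalization, the aligner, the control and the depth are not given in the sources used here.

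Widths were end + 1 - start, and positions count from 1. An overlap is at least 1 bp. Shares carry exact Clopper-Pearson 95% intervals. The segments are the 2 windows of 10 Mb with the most broad islands, chosen after their values were seen. Regions were named by width, score per kb and cover (the 5 leading of each); the text gives the leading ones. The members and lists were chosen with earlier results of these data known. Gene lists were not run for want of positions on hg19. Simulated islands with known overlaps served as a check of the code. The software was Python 3.11.15 with matplotlib 3.10.9, scipy 1.17.1 and numpy 2.4.6.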

Additional observations from a re-analysis of the deposited data

How the results depend on the processing

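No paired analysis was possible because each line and antibody had 1 library. Of 56 alternative values for 6 results, 21 stayed within the interval of the value given (for the number of islands, within 1.5 times). The interval was 24.4 to 26.3 for the median score per kb and 49.1 to 59.5% for the share in the 10 leading windows. For the SUDHL6 H3K27me3 cover it counted every step of 150 bp as independent. It ran only from 21.8 to 22.6% and is far too narrow. The count of 21 depends on these intervals. Of the 21, 12 came from adding chromosome X or keeping the 50% of HT H3K27me3 islands with the highest scores, which kept the same 370 islands and so say nothing about stability, and 9 from the other settings. The rest were as follows, and the cause was not tested beyond what each setting keeps or drops. The number of broad islands was 698 at 8 kb, 111 at 15 kb, 53 at 20 kb, 1306 with islands within 5 kb joined, 236 without chromosome 11 and 217 without the 2 segments, a setting added after the data were seen. For these settings in the same order the median score per kb was 23.8, 28.2, 29.8, 16.4, 24.2 and 23.1, the length covered by SUDHL6 H3K27me3 was 24.5%, 16.8%, 17.1%, 21.6%, 30.6% and 33.0%, and the share in the 10 leading windows was 43.4%, 84.7%, 92.5%, 24.96%, 39.4% and 26.7%. That share was 60.3% in 20 windows of 5 Mb. The share with HT EZH2 was 14.4% at 15 kb, 17.0% at 20 kb, 33.1% without chromosome 11 and 38.2% without the segments. The share with HT H3K4me3 was 1.80% at 15 kb, 1.89% at 20 kb, 2.16% with at least 10% of the island overlapped and 1.89% with the 50% of H3K4me3 islands of highest score. The SUDHL6 H3K27me3 cover was 21.7% of the same length with only cover of at least 10% of an island counted, and 18.2% with the 50% of SUDHL6 H3K27me3 islands of highest score.

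The lower share with HT EZH2 in the segments was present in every setting that kept them. Over the settings that changed the islands or overlaps it ran from 2.61% to 7.83% there and from 23.6% to 53.8% elsewhere, with the closest pair under joining (7.83% and 23.6%). Joining also lowered the share of broad islands in the segments to 8.81%. With no replicates and unknown depth, a place without an island may still carry the mark.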
